A study of Drosophila melanogaster with 3 samples.

Results

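Distal intronic peaks are the sites of Schnurri binding that lie inside genes but away from any promoter. They are the reproducible peaks whose summit is more than 1 kb from every annotated transcription start site (TSS) of a gene of any biotype, and which fall inside a protein-coding gene but in no exon of such a gene. Of 3586 reproducible peaks, 758 met this rule (21.1%, 95% Wilson interval 19.8 to 22.5). The other peaks were 2485 promoter-proximal peaks, 306 distal intergenic peaks and 37 distal peaks in exons. Binding was measured by chromatin immunoprecipitation and sequencing (ChIP-seq) with an anti-GFP antibody in whole embryos of both sexes, collected 0 to 24 h after laying. The flies, of strain shn-GFP, carry a transgene for Schnurri (gene shn) fused at its C-terminus to GFP, so every sample holds the tagged protein. The 3 biological replicates form 1 group, with no second condition. Embryos of all stages and all cell types were pooled, so a peak can come from any of them.

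Schnurri is a large zinc finger protein of the Dpp pathway, the fly BMP signal. When Dpp binds its receptors, the Smad proteins Mad and Medea enter the nucleus, and at short DNA sequences called silencer elements they recruit Schnurri to shut off the transcription of target genes. The best known target is brk (brinker), whose product represses Dpp target genes, so that loss of brk transcription opens them. Introns are a common place for enhancers and silencers in flies, including elements that act on a neighbouring gene rather than on the host.

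The sequences below are shown because brk is the best known target. The intronic peaks around it also hold the only matches to the silencer element within 100 bp of a summit among all 758. Both windows lie within introns of CG1677, a gene on the opposite strand that surrounds brk, and the second also lies within Atg5, which encodes an autophagy protein nested in the same region. Each is the plus strand of the RefSeq Release 6 assembly (dm6), reaches 100 bp to either side of a summit and has the silencer element matches in capitals. They span chrX:7299739-7299939 and chrX:7317328-7317528.
CG1677, 8100 bp upstream of brk: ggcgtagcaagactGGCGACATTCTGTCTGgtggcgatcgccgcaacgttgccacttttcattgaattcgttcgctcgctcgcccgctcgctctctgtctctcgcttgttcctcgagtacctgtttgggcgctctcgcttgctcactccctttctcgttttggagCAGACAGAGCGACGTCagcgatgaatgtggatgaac
Atg5 and CG1677, 9489 bp downstream of brk: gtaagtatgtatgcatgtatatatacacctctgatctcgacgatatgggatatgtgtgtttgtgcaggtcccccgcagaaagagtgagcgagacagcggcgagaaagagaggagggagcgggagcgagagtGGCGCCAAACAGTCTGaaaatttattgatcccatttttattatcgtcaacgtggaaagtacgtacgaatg

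The first window has 2 matches on opposite strands and the second has 1. The match in the second window overlaps a match to the Brinker site (GGCGCCA), the sequence bound by the Brk protein. Matches to the silencer element were otherwise rare. Distal intronic sequence of the 6 arms held 129 of them, or 2.89 per Mb, and 9 of the 129 were in CG1677, or 108 per Mb of its distal intronic sequence. Of the 129, 3 lay within 100 bp of the summit of a distal intronic peak, and all 3 were in CG1677. Within 200 bp there were 6, of which 4 were in CG1677. Silencer elements were first described at brk, so a cluster of matches there is known background and not a result of these peaks.

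Counting a peak once for each host, the gene around brk held the most distal intronic peaks after shn itself. Those 9489 and 11309 bp downstream of brk also lie in Atg5, and that 30840 bp downstream also lies in CBP. With peaks given only to their innermost host, sbb and Hr4 held more than CG1677. Per 100 kb of distal intronic sequence, only CG32264 and kirre of the 10 hosts with most peaks had fewer than CG1677. In CG1677 (FBgn0029941, X from 7281089 to 7405797, minus strand) 10 distal intronic peaks were found, 7 of them nearer to the TSS of another gene than to one of CG1677. brk itself (FBgn0024250, X from 7307939 to 7311132) has no intronic sequence more than 1 kb from a TSS. Of the 10 peaks, 5 lay upstream of brk, at 14662, 14135, 8100, 6868 and 3000 bp from its TSS, and 5 lay downstream, from 9489 to 30840 bp away. The strongest, 6868 bp upstream, had a pooled signal of 413 and ranked 201 of 30000 in the pooled list. It ranked 1297, 415 and 60 in replicates 1, 2 and 3. The peak with 2 silencer elements, 8100 bp upstream, had a signal of 402 and rank 212, and ranked 3340, 570 and 46 in the replicates. The peak with 1 silencer element, 9489 bp downstream, had a signal of 131 and rank 2051, and ranked 24111, 2028 and 1225.

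All 3 of these peaks stood far higher in replicate 3 than in replicate 1. Peaks of CG1677 did not all do so. The peak 28403 bp downstream, with a signal of 320.1, ranked 315, 410 and 518. That 14135 bp upstream stood higher in replicate 1 than in replicate 3, at 307, 3409 and 2827, as did those 26323 bp downstream, at 3088, 1550 and 5860, and 30840 bp downstream, at 2098, 2886 and 3469. The other 3 stood higher in replicate 3 than in replicate 1. They ranked 1063, 817 and 289 at 14662 bp upstream (GC content 40.8%), 6674, 8595 and 1623 at 3000 bp upstream (53.2%) and 1414, 2155 and 988 at 11309 bp downstream (29.4%). GC content differed among these peaks. It was 58.7% in the 201 bp around the summit 6868 bp upstream, 56.2% around that 8100 bp upstream, and 46.8% around that 9489 bp downstream. It was 38.8% around that 14135 bp upstream, 32.3% around that 26323 bp downstream, 30.3% around that 28403 bp downstream and 33.8% around that 30840 bp downstream, against a mean of 37.9 ± 6.60% (SD over the 758 peaks). Over all distal intronic peaks, the 190 with a GC content of 41.8 to 59.7% had a median rank of 2405 in replicate 1 and 1524 in replicate 3, while the 197 with 20.9 to 32.8% had 1865 and 2322. The part of base composition in these ranks was not tested.

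**Figure D1:**
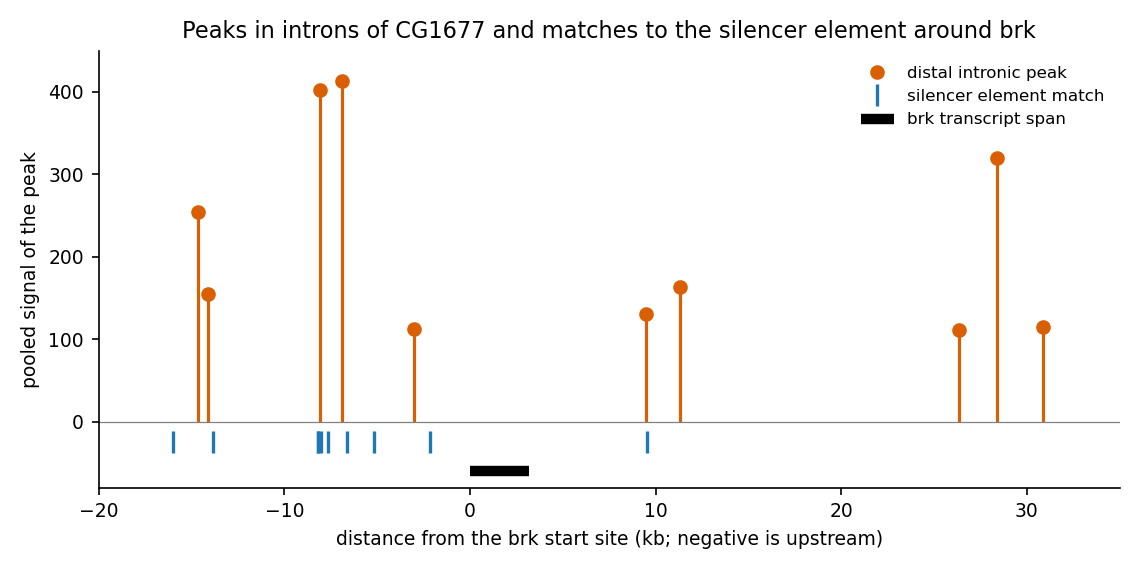
Distal intronic peaks of CG1677 by distance from the brk TSS (x axis, kb) and pooled signal of the peak (y axis, the authors' signal value), with blue ticks for the 10 silencer element matches in the span of CG1677 and a black bar for the brk transcript. Of the matches, 9 lie upstream of brk and 1 lies downstream, and the strongest peaks are those 8100 and 6868 bp upstream.

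The silencer element was therefore present within 100 bp of 2 of 758 distal intronic summits (0.264%, 0.0724 to 0.957). By comparison, 0.0513% of the 208620 windows of 201 bp that tile all distal intronic sequence held it. It was also at 2 of 2485 promoter-proximal and 1 of 306 distal intergenic peaks (0.327%), so it was not particular to distal intronic peaks. The Dpp activating element is a related Smad sequence that contains the letters of the Brinker site. It was at 0 of 758 distal intronic, 9 promoter-proximal and 2 of 306 distal intergenic peaks (0.654%), and in 0.0676% of all windows. A count of 0 allows a share of up to 0.396%, so its absence is not distinguishable from the share in all windows. The GC-rich Mad site (GCCGNCG) was within 100 bp of 3.56% of distal intronic summits (2.46 to 5.13) and in 5.07% of all windows. It was at 5.75% of promoter-proximal and 4.25% of distal intergenic peaks. The Smad box (GTCTGTC) was at 1.45% (0.812 to 2.58) and in 2.14% of windows. For both, the share in all windows lay within the interval. The Brinker site was at 3.17% (2.14 to 4.67) and in 1.36% of windows. It was also at 2.98% of promoter-proximal and 4.58% of distal intergenic peaks, so it was not particular to distal intronic peaks. Matches were counted on both strands and describe letters only, not bound sites.

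Promoter elements were rarer at these peaks than at promoter-proximal peaks, a contrast favoured by the rule, which leaves out summits near a TSS. The DRE (TATCGATA), bound by the factor DREF at housekeeping promoters, was at 0.264% of distal intronic peaks and 7.36% of promoter-proximal peaks, against 0.365% of all windows. M1BP motif 1 was at 0.132% and 2.13%, against 0.0302%. Of the motifs of tissue factors, the AP-1 site (TGANTCA), bound by Fos and Jun, was at 7.12% (5.50 to 9.18) and in 4.34% of all windows. It was also at 6.21% of distal intergenic and 5.27% of promoter-proximal peaks, with 5.75% at pooled distal intronic peaks outside the reproducible list. The GATA site (AGATAAG) was at 3.69% (2.57 to 5.29) and in 2.49% of windows, with 2.61% of distal intergenic and 2.62% of promoter-proximal peaks. The STAT site (TTCNNNGAA) was at 6.99% and in 6.26%, and the Zelda site (CAGGTAG), of the factor that opens the early genome, at 1.45% and in 0.870%. The Grainyhead site was at 1 peak, and the E-box CAGCTG was at 7.92% and in 7.22% of windows. Sites of other factors were at a lower share than in windows. These were TCF (3.17% and 3.92%), Su(H) (2.51% and 2.74%), Tinman (3.96% and 4.19%), ETS (0.528% and 0.809%) and ATF/CRE (0.264% and 0.317%). The Scalloped site was at 2.37% and in 2.27%. The GAGA repeat was at 3.96% (2.79 to 5.59) and in 2.67% of windows, with 5.67% of promoter-proximal peaks. For the DRE, M1BP motif 1 and the STAT, E-box, Zelda and Grainyhead sites the share in all windows lay within the interval of the share at peaks. The same held for the TCF, Su(H), Tinman, ETS, ATF/CRE and Scalloped sites.

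The sequence most shared by distal intronic peaks was none of these. Words of 7 letters were counted at the summits, keeping those at 5% or more of the peaks and ordering them by their ratio to all windows, a rule chosen after the data were seen. Of the first 10 words, the leading one was ACAGTGG, at 13.7% of distal intronic peaks (11.5 to 16.4) and in 2.39% of windows, and the next was CACTGTA, at 76 of 758 and in 1.75%. Both hold the 6 letters CACTGT or their reverse complement ACAGTG. These 6 letters were within 100 bp of 182 distal intronic summits (24.0%, 21.1 to 27.2), 19.2% of promoter-proximal summits (17.7 to 20.8) and 21.6% of distal intergenic summits (17.3 to 26.5). They were at 11.3% of the distal intronic peaks that the pooled list holds outside the reproducible list, and in 7.30% of all windows. With the 758 peaks split by signal into 4 groups of like size, the share from the strongest group to the weakest was 25.8%, 24.9%, 26.5% and 18.9%. No factor is named for the word, since no file links it to one.

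The windows of CHES-1-like, a forkhead factor gene, and of CG32264 held the most copies, and the peak 6868 bp upstream of brk also held them. They are printed with CACTGT or ACAGTG in capitals, from the plus strand of dm6, each with the summit in its middle. They span chrX:7700300-7700500, chr3L:3785123-3785323 and chrX:7300971-7301171.
CHES-1-like: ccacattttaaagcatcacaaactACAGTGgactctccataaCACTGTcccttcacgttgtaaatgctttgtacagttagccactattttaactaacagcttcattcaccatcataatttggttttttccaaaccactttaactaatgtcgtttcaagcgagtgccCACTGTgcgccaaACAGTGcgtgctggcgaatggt
CG32264: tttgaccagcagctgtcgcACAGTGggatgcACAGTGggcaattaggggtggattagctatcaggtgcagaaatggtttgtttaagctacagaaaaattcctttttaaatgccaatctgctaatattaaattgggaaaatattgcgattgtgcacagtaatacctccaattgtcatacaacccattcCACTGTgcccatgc
CG1677, 6868 bp upstream of brk: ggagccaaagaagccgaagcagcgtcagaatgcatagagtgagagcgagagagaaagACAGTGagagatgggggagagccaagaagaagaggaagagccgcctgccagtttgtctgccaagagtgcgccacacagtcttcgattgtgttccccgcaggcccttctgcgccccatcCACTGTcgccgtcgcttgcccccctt

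In the windows of CG32264 and CG1677 every ACAGTG stands to the left of the summit and every CACTGT to the right, while that of CHES-1-like has both forms on both sides. Over the whole set the first arrangement was the more frequent. The word was not most frequent at the summit itself. Its density was 0.923 per kb within 25 bp of the summit, 1.85 per kb at 50 to 100 bp and 0.488 per kb at 200 to 300 bp. At 50 to 100 bp to the left, 54 copies read ACAGTG and 22 read CACTGT. On the right at the same distance, 54 read CACTGT and 10 read ACAGTG. Within 150 bp, 56 distal intronic peaks had a copy on either side. Of these, 45 had ACAGTG left and CACTGT right, 0 had the opposite arrangement and 11 had both copies in the same orientation, taking the copies nearest to the summit.

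The distance between the 45 facing copies had a median of 162 bp, from 85 to 265. As a share of all peaks of a kind, the facing pair was at 5.94% of distal intronic, 2.41% of promoter-proximal and 3.59% of distal intergenic peaks, and at 0.758% of the pooled distal intronic peaks outside the list. The facing pair was thus found in all 3 position classes counted, with the 37 distal exonic peaks not counted. The word was taken from the leading words of the distal intronic peaks, so its shares by class are a description. Of 222 copies within 100 bp of the 758 summits, 5 were in soft-masked repeat sequence of the reference.

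**Figure D2:**
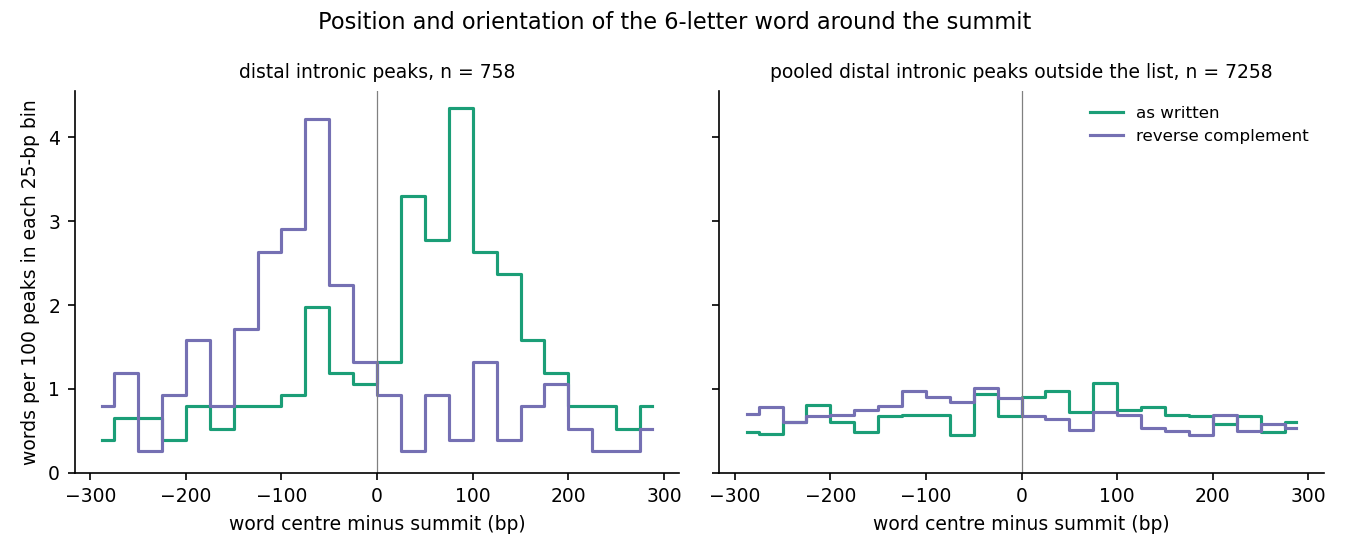
Copies of the 6-letter word per 100 peaks (y axis) in 25-bp bins of distance from word centre to summit (x axis), for 758 distal intronic peaks (left) and 7258 pooled distal intronic peaks outside the reproducible list (right), as written and as the reverse complement. In the reproducible peaks the reverse complement rises left of the summit and the written form right of it, with a dip at the summit, while both lines vary less with distance in the other peaks.

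The strongest distal intronic peak lay in the first intron of ush (u-shaped), which encodes a FOG-family partner of GATA factors and is a Dpp target in dorsal tissue. Its window, chr2L:480976-481176, is printed because it was the second strongest peak of the whole list. It holds no copy of the word above, and therefore has no capitals.
ush: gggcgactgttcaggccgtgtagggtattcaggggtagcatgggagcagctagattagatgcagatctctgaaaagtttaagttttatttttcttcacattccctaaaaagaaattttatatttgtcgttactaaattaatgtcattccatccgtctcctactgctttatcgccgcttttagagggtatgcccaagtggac

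This peak had a signal of 1818 and ranked 3, 2 and 2 in replicates 1, 2 and 3. Its summit lay 1388 bp from the TSS of cbt, which encodes the zinc finger factor Cabut, and 4856 bp from the 5' end of ush, so the host is not the nearest gene. A further 5 distal intronic peaks in ush ranked from 675 to 3021. The one at rank 675 was unmatched in replicate 1 and ranked 827 and 188 in replicates 2 and 3, and that at rank 1415 ranked 25114, 4403 and 352.

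Next in strength came peaks in CG11050 (signal 1190, pooled rank 15), CG32772 (1065, rank 22) and Trl (802, rank 40), the gene of GAGA factor. CG11050 ranked 29, 15 and 8 in replicates 1, 2 and 3, CG32772 ranked 27, 28 and 21, and Trl ranked 38, 42 and 64. Raf, the kinase of the Ras pathway, had peaks of signal 666 and 467 in its second intron, 2263 and 8665 bp from the 5' end. The upd3 peak, in the gene of a JAK/STAT ligand, had a signal of 575 and ranked 610, 113 and 40. That in cno (canoe), which links junctions to actin, had a signal of 629 and ranked 903, 190 and 16. The others of the 20 strongest were in CG3726, NFAT, Tlk (Tousled-like kinase), CG32264, for (a cGMP-dependent protein kinase), CG9837, Pits, schlank (ceramide synthase), Lsd-2 (a lipid droplet protein) and shn, which held 3 of them. A replicate's top list is its 3586 peaks of highest signal, and each of the 20 peaks was in all 3 of them. Of the 20, 14 ranked 200 or better in every replicate, but the pooled ranks that chose them come from the same libraries. In 19 of 20 the nearest coding TSS belonged to the host, the exception being the ush peak.

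**Figure D3:**
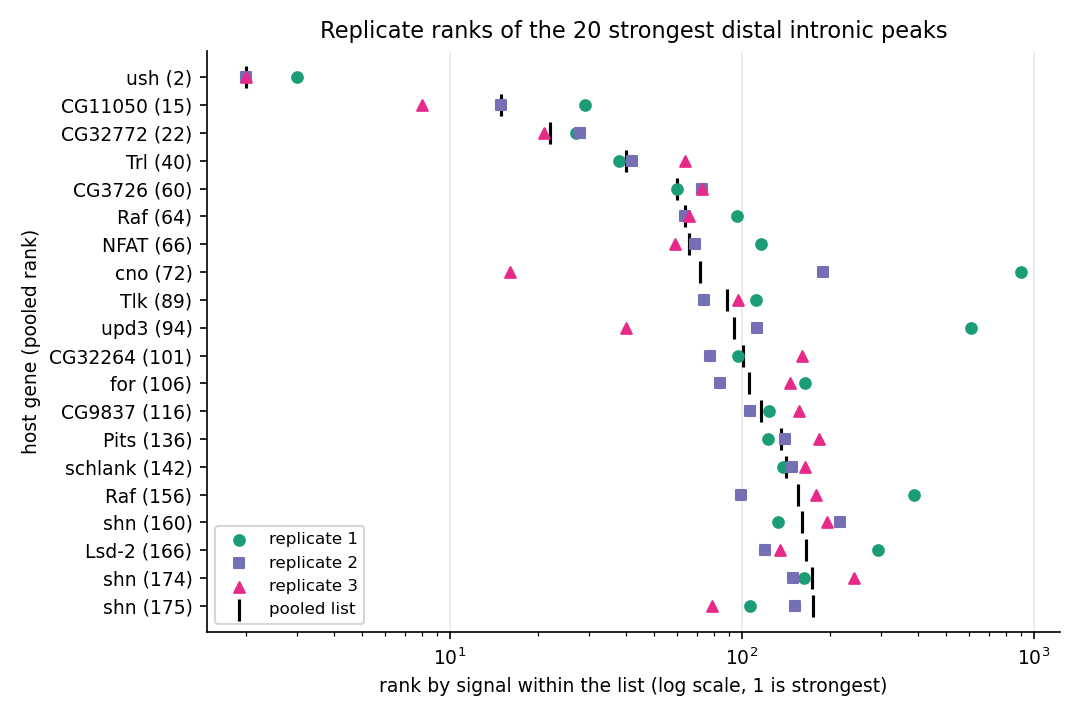
Rank by signal in each replicate (log x axis, 1 is strongest) of the 20 strongest distal intronic peaks, listed by host gene with pooled rank in brackets and as a black tick. Most markers of a peak lie close together, while cno and upd3 ranked 16 and 40 in replicate 3 and 903 and 610 in replicate 1.

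In top lists of 3586 peaks, the share of distal intronic peaks differed from that of promoter-proximal peaks by less than the spread between replicates. Peaks of both classes had been kept as reproducible over these same replicates, so how often they recur is partly set by that selection. Of the 758, 73.6% were in the top list of replicate 1, 85.9% in that of replicate 2 and 75.6% in that of replicate 3, where all reproducible peaks had 74.2%, 85.0% and 78.1%. Every replicate's top list held 395 (52.1%, 48.6 to 55.6), against 53.8% of all reproducible peaks, 241 were in 2 lists, 115 in 1 and 7 in none. Replicate 1 had no overlapping peak for 66, replicate 2 for 2 and replicate 3 for 4. In replicate 1, 91.3% of distal intronic, 90.6% of promoter-proximal and 92.2% of distal intergenic peaks had an overlapping peak. The share in a top list, distal intronic minus promoter-proximal, was -1.36, 0.612 and -4.33 percentage points in replicates 1 to 3 (mean -1.69 ± 2.49, SD, n = 3; two-sided exact sign-flip test, p = 0.500). With top lists of 1793 peaks the mean was -7.50 (exact p = 0.25), the smallest p that 3 replicates allow. Against distal intergenic peaks the share was higher in all 3 replicates, by a mean of 4.62 ± 1.96 percentage points (SD, n = 3; exact p = 0.25).

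Their signal was somewhat lower than at promoters. The pooled signal had a median of 135, from 91.6 to 1818, against 146 at promoter-proximal and 126 at distal intergenic peaks. The difference in median log2 signal, intronic minus promoter-proximal, was -0.30, -0.09 and -0.10 in replicates 1, 2 and 3 (mean -0.17 ± 0.12, SD, n = 3; exact p = 0.25). Intronic minus intergenic was 0.13, 0.11 and 0.11 (mean 0.12 ± 0.01, SD, n = 3; exact p = 0.25). Both had the same sign in every replicate, and neither can pass 0.05 with 3 replicates. Distal intronic peaks made up 16.7% of the peaks ranked 1 to 896 (14.4 to 19.3) and 23.9% of those ranked 2690 to 3586 (21.2 to 26.8). Among the remaining pooled peaks they were 27.5%, and distal intronic sequence is 33.3% of the arms.

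**Figure D4:**
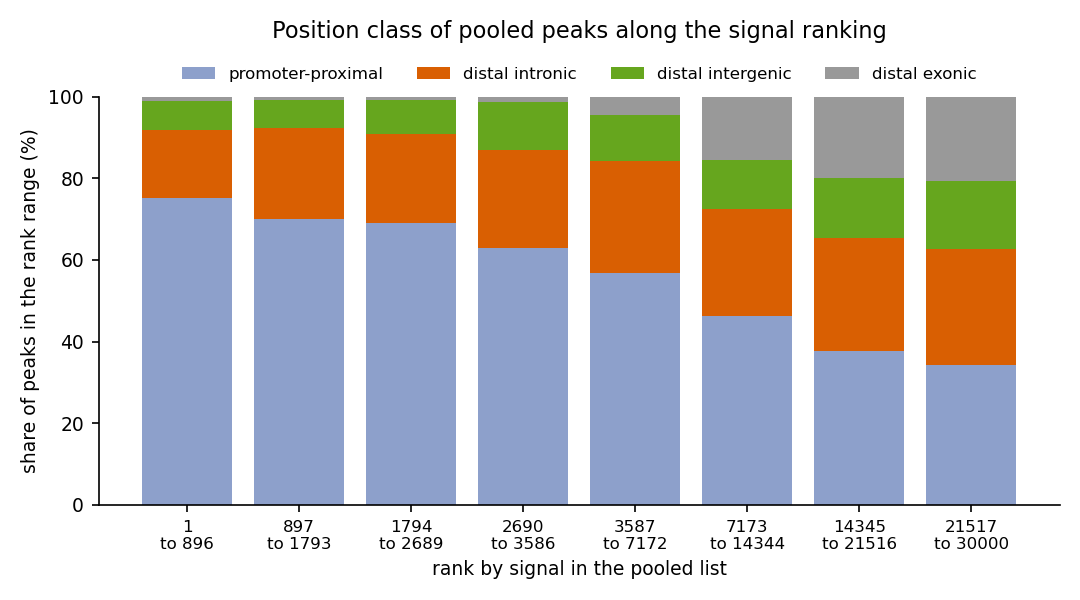
Share of pooled peaks in each position class (y axis, %) by range of signal rank (x axis), with the reproducible peaks in the first 4 bars. The distal intronic share goes from 16.7% in the first bar to 28.4% in the last, while the promoter-proximal share falls.

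Within genes the peaks leaned to the first intron. Introns were counted from the 5' end as gaps between the merged exons of the innermost host. The first intron held 333 of the 758 peaks (43.9%, 40.4 to 47.5), although first introns make up 23.5% of distal intronic sequence, and it held 32.9% (31.8 to 33.9) of the remaining pooled distal intronic peaks. A further 189 were in the second, 71 in the third and 165 in later introns. The introns with peaks had a median length of 8622 bp (140 to 108407). The median distance to the nearest TSS of any gene was 2988 bp (1007 to 42314), and 260 peaks (34.3%) lay under 2 kb from one. The nearest coding TSS was one of a host in 632 (83.4%, 80.6 to 85.9). Intron length and nearest TSS were not computed over all distal intronic sequence, so neither shows a preference of the peaks. A single gene hosted 717 peaks, 39 lay in 2 nested or overlapping genes and 2 in 3. Just inside the 1 kb limit were peaks in sty (1007 bp), Tob and osa (1009 bp each), with signals of 175, 191 and 137. Just outside were peaks in Mhcl (999 bp), Roc2 (997 bp) and magu (993 bp), with 159, 219 and 219.

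Chromosome X carried more of them than its length. It held 187 peaks (24.7%, 21.7 to 27.9) and 18.7% of distal intronic sequence, or 22.5 peaks per Mb, where the other large arms had 13.7 to 18.5 per Mb. X held 16.6% of promoter-proximal, 12.7% of distal intergenic and 16.6% of the remaining pooled distal intronic peaks. In the top lists of replicates 1, 2 and 3, X held 24.7%, 24.0% and 20.7% of distal intronic peaks. Of the 20 strongest, 10 were on X. Arm 4 had 0 peaks and holds 0.452% of distal intronic sequence. A count of 0 allows up to 0.396% of the set by 3 counts and up to 0.504% by the Wilson interval. No shortfall on arm 4 is therefore read from it.

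The 758 peaks lay in 502 genes, which are 7.36% of the 6824 protein-coding genes with any distal intronic sequence. The share grew with the length of such sequence in a gene. It was 0.309% for genes with up to 1000 bp, 7.75% up to 5 kb, 19.9% up to 20 kb, 28.2% up to 50 kb and 38.1% beyond. Per 100 kb of distal intronic sequence, counting a peak once for each host, genes with up to 1000 bp had 1.44 peaks, those up to 5 kb 3.57, up to 20 kb 2.73, up to 50 kb 1.76 and beyond 50 kb 0.831. Density was thus highest in the class of 1 to 5 kb and fell from there with length. A reproducible peak within 1 kb of a TSS was also present in 264 of the 502 hosts (52.6%, 48.2 to 56.9), against 25.6% (24.5 to 26.7) of genes without an intronic peak. In genes with 5 to 20 kb the shares were 52.1% and 24.3%. Promoter and intronic peaks of a gene are calls of the same libraries.

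Many hosts had several peaks, counting a peak once for each host. Of the 502, 326 had 1 peak, 116 had 2 and 60 had 3 or more. Neighbouring peaks in a gene were a median of 3703 bp apart (299 pairs), and 52 pairs lay under 1 kb. The lowest distance between summits was 199 bp, below the median peak width of 400 bp. Such close summits count as separate peaks here, and whether they are parts of 1 site was not tested. The hosts with most peaks were shn (17), CG1677 (10), sbb (9), Hr4 (8), Raf (7) and ush (6), followed by 7 genes with 5 each, which in order of their strongest peak were Tlk, CG32264, CHES-1-like, kirre, Eip75B, tna and jing. sbb (scribbler), also on the Dpp pathway list, encodes a transcriptional corepressor, Hr4 a nuclear receptor of the ecdysone cascade and kirre an adhesion protein of myoblast fusion. CHES-1-like had 54.0 peaks per 100 kb and kirre 1.63, against 1.73 over all genes with distal intronic sequence.

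shn, the gene that encodes the tagged protein, held the most. Its 17 distal intronic peaks (FBgn0003396, 2R from 11159086 to 11217394, plus strand) lay in 4 introns over 28063 bp. In the top lists of replicates 1, 2 and 3 there were 12, 15 and 15 of the 17, and 10 were in all 3. The strongest, at 11195884, had a signal of 465 and ranked 133, 217 and 195. That at 11175530 was unmatched in replicate 1 and ranked 2227 and 125 in replicates 2 and 3. Those at 11202977 and 11203176 matched the same region of every replicate. Peaks outside the reproducible list were dense as well, at 42.3 per 100 kb beside 48.0 for the reproducible ones. The former density was not particular to shn, as ush had 68.6 and tara 96.0. Since the line carries a tagged copy of shn, extra DNA of this region and binding to it cannot be told apart.

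The Dpp pathway was next examined across its parts. A number in brackets after a gene is the pooled rank of its strongest distal intronic peak. Of 22 pathway genes with distal intronic sequence, 12 hosted a peak (54.5%, 34.7 to 73.1), with 8.59 peaks per 100 kb, or 5.35 without shn. Of the 23 peaks outside shn, 9 were in sbb (1165), so this density was not spread evenly over the pathway. Over all genes with such sequence the values were 7.36% and 1.73 per 100 kb. The pathway genes had a median of 15660 bp of it, and 19.9% of all genes with 5 to 20 kb hosted a peak. The ligand gene dpp (FBgn0000490) had 1, at position 2433690 of 2L in its first intron, which had a signal of 199 and ranked 850, 1423 and 1134 in replicates 1, 2 and 3. Of the antagonists and carriers outside the cell, sog, the fly Chordin, had peaks at ranks 1299 and 1385, cv-2 (crossveinless 2) at 1168 and 2338, and the glypican gene dlp had 2, the better at rank 697.

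Peaks in the receptor genes differed in strength. The type II receptor gene wit had a peak of rank 350, signal 337, that ranked 353, 370 and 310 in the replicates. put, the other type II receptor gene, had one of rank 2075. The type I receptor gene tkv had a weak peak of rank 2526, signal 115, that was unmatched in replicate 1 and ranked 4996 and 966 in replicates 2 and 3.

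Inside the cell, Dad, the inhibitory Smad that is induced by Dpp, had a peak in its intron 5 at position 17065150 of 3R, with a signal of 281 and ranks of 555, 507 and 701. It lay 10253 bp from the nearest TSS of Dad and 7525 bp from that of Ns1. Snoo, a Ski-family corepressor gene, had peaks at ranks 2134 and 2418, and nmo, a kinase gene, had one at 3106. Of BMP-responsive dorsal patterning genes, 5 of 19 hosted a peak (26.3%, 11.8 to 48.8). Their median length of distal intronic sequence was 9463 bp, and the 19.9% of all genes with 5 to 20 kb lies within that interval. The hosts are named next. They were ush, the EGF ligand gene vn (best rank 635), Btk (1062), bs (2478) and bi. pnr, a GATA factor gene of the dorsal embryo with 9463 bp of distal intronic sequence, hosted 0.

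Among the other lists, the highest share was at bZIP factor genes, where 8 of 11 hosted a peak (72.7%, 43.4 to 90.3; 6.42 peaks per 100 kb). They were led by kay, the fly Fos (rank 384), REPTOR of the TOR response (751), CrebB (762) and Pdp1 (962). EGFR pathway genes hosted peaks in 10 of 20, with Raf followed by S (Star), which traffics the ligand (249), aos, a secreted inhibitor (319), and aop, an ETS repressor (387). Ecdysone genes hosted peaks in 7 of 14, led by the nuclear receptor genes Hr4 (227), Hr3 (242), EcR (330) and Eip75B (503). JNK and dorsal closure genes had 9 of 20 (45.0%), with ush, cno, kay and the kinase gene msn (1012) first.

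JAK/STAT genes had 4 of 9, where upd3 was joined by Socs36E (1322), Ptp61F (1886) and Stat92E (2846). The Polycomb and trithorax list had 6 of 21 (28.6%), led by Trl, trx (476), Psc (1589) and ph-p (1680), with the highest density of the lists, 10.2 peaks per 100 kb. Tracheal genes had 5 of 11 (45.5%, 21.3 to 72.0), led by grh (597), rib (832), pnt (1148) and sty (1264). Wnt genes had 6 of 19 (31.6%, 15.4 to 54.0), led by the receptor gene fz (377), nkd (1088), arr (1304) and Notum (1581). Notch genes had 4 of 14 (28.6%, 11.7 to 54.6), led by N, the receptor gene (305), mam (621), neur (940) and fng (1910). The tracheal, Wnt and Notch lists had median lengths of 19190, 8322 and 13656 bp. The 19.9% of all genes with 5 to 20 kb lies within the Wnt and Notch intervals and just below the tracheal one.

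Ion channel and synaptic genes had 3 of 24, which were for (106), dnc (1418) and Shal (2559), at 0.686 peaks per 100 kb. Axon guidance and adhesion genes had 11 of 30, led by Fas3 (559), fra (1172), NetB (1392) and sli (1528), but 0.989 peaks per 100 kb, below the 1.73 of all genes. Hox genes had 2 of 8, Antp (2000) and Abd-B (3349), and mesoderm and heart factors 3 of 17 at 3.01 per 100 kb, led by zfh1 (383), Mef2 (1339) and how (2009). Hedgehog genes had rdx (1010) and ptc (1818) of 9, insulin and TOR genes InR (1030) and S6k (2799) of 15, and 1 gene was found in each of the FGF (ths, 773), gap and pair-rule (cad, 2588), germline (pum, 927) and neural (insc, 3241) lists. Muscle structural genes (0 of 17, up to 17.6%) and epidermal junction genes (0 of 15) had none, too few genes to set them apart from the 7.36% of all genes.

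Listed and unlisted genes differ in the length of their distal intronic sequence, so the shares were also set side by side within length classes. Of 334 listed genes, 80 had up to 1000 bp, and 1 of these hosted a peak. Of genes with 5 to 20 kb of distal intronic sequence, 34.5% of the 87 listed and 18.5% of the 888 unlisted genes hosted a peak. With 20 to 50 kb the shares were 52.6% of 76 and 23.1% of 368. The lists were chosen with results of these data known, so these shares are a description.

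**Figure D5:**
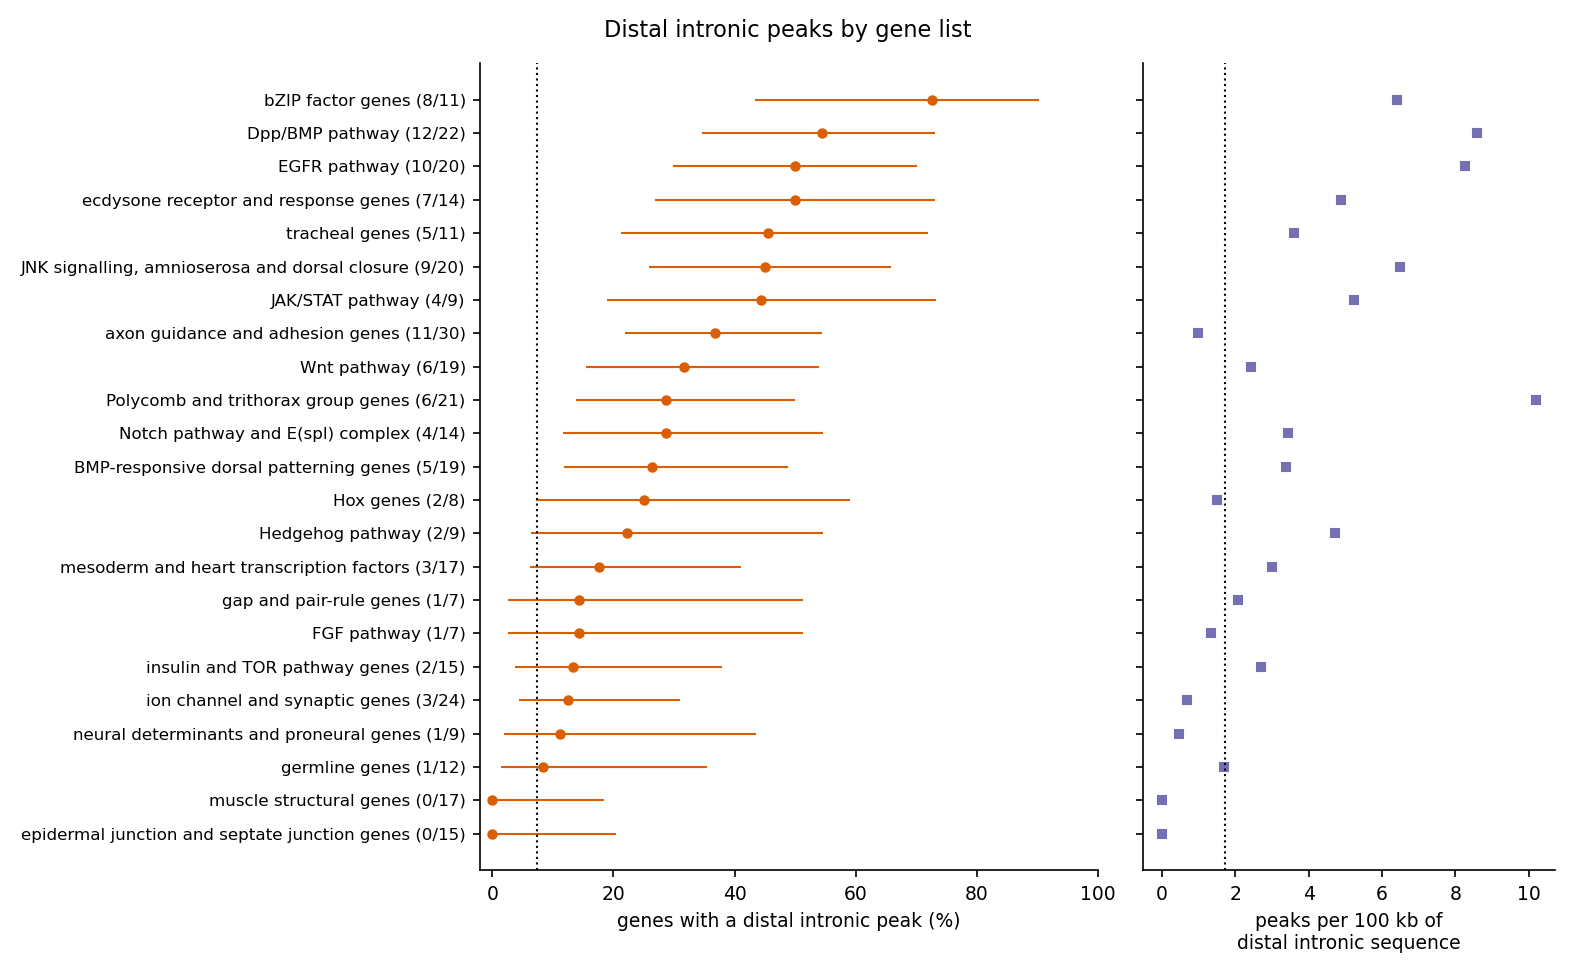
Share of genes hosting a distal intronic peak in each list (left, %, with 95% Wilson intervals that cover counting error over genes; hosts and genes with distal intronic sequence in brackets) and peaks per 100 kb of distal intronic sequence (right). Dotted lines mark all genes with such sequence, 7.36% and 1.73, and the axon guidance, ion channel, Hox, FGF, germline and neural lists are above the left line and below the right one.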

How the data were processed

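Per the notes deposited with the lists, the authors called peaks per replicate and on the pooled replicates against a control, and kept peaks that passed an irreproducible discovery rate (IDR) threshold. Each deposited peak has the authors' signal, their −log10 q value and a summit. The control was not analysed here. Peak caller, aligner and IDR threshold were not stated in any label or note used. Each replicate list holds 30000 ranked regions, and read depth is unknown. Signal was compared only within a list.

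The dm6 lists were used. Classes came from the Ensembl release 115 annotation of BDGP6 and sequence from RefSeq Release 6, with all peaks inside the arms. Peaks matched with an overlap of at least 1 bp. Differences were tested over the 3 replicates by the two-sided exact sign-flip test. Shares have Wilson 95% intervals, which cover counting error only. A count of 0 allows 3 counts of the total. Motifs (20) were searched on both strands within 100 bp of a summit. Scripts in Python 3.11.15 (numpy 2.4.6, pandas 2.3.3, SciPy 1.17.1) were tested on simulated data.

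Named are the hosts of the 20 strongest peaks, the 10 hosts with most peaks, up to 4 hosts per list (23 lists), hosts with either Smad element, and shn, brk, dpp, Dad, tkv, ush and pnr. Other genes were named after their values were seen. The members, lists, motifs and rules were chosen with earlier results of these data known. Alternatives changed the TSS distance, annotation, window, match, top list and replicates. The replicates are biological ones per the labels.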

Additional observations from a re-analysis of the deposited data

How the results depend on the processing

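No paired analysis was possible because the 3 replicates form 1 group, so no groups share replicate numbers; the class differences are already taken within each replicate. Of 77 alternatives of the main results, 69 stayed within tolerance, which was the 95% interval of the reported share or median, 1.5 times a count of genes, and the sign of a replicate difference. The share of distal intronic peaks was 28.2% with a TSS distance of 0.5 kb, 13.9% with 2 kb, 22.7% with coding TSSs only and 19.5% among the stronger 1793 peaks. The share in the first intron was 39.6% with 2 kb, where first introns made up 21.4% of the sequence. Genes hosting a peak were 670 with 0.5 kb, 337 with 2 kb, 269 among the stronger 1793 peaks and 321 to 366 with a replicate left out. The difference in top-list share from promoter peaks turned to 0.0665 percentage points with whole replicate lists (exact sign-flip p = 1.00). With a replicate left out the intronic share ran from 20.5% to 20.8%, the first-intron share from 45.3% to 46.3%, the top-list difference from -2.84 to -0.371 and the signal difference from -0.20 to -0.10. Added after the data were seen, TSSs without transposable elements gave 775 peaks, and leaving out those in shn gave 741. The share with the 6-letter word was 10.9% in a 50 bp window and 39.6% in one of 250 bp, against 3.66% and 17.2% of all windows, and 24.8% to 28.3% with a replicate left out. The share on X ran from 24.2% to 27.6% over all settings. The silencer element was at 1 peak with 50 bp and at 5 with 250 bp, and at 1 or 2 with a replicate left out. Of 480 alternatives for single lists, motifs and the word, 79 moved. Where a value moved, the cause was not tested, apart from the fewer peaks that enter. Unknown depth limits every statement on weak peaks.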

Other observations

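The words of 7 letters that led at distal intronic summits were not all versions of the 6 letters described above. CAGTGTA was at 9.23% of distal intronic peaks (7.37 to 11.5), 13.1% of distal intergenic peaks (9.75 to 17.3) and 4.87% of promoter-proximal peaks, against 1.92% of all windows. CAGTGCA was at 10.3% (8.32 to 12.7), 16.7% (12.9 to 21.3) and 5.67%, against 3.15%. AGGGTAT was at 6.20% (4.69 to 8.15), 3.59% and 3.94%, against 1.97%. At least 1 of the 10 leading words was at 354 of 758 distal intronic peaks (46.7%, 43.2 to 50.3), 49.3% of distal intergenic peaks (43.8 to 54.9), 31.3% of promoter-proximal peaks and in 15.2% of all windows. The words were chosen on these peaks, so the shares are a description.

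Base composition differed between the peaks inside and outside the reproducible list. The mean GC content of the 201 bp around the summit was 37.9 ± 6.60% (SD over 758 peaks) for distal intronic peaks, 43.8 ± 7.62% for the 7258 remaining pooled ones and 40.2 ± 7.90% for all windows. Soft-masked repeat sequence covered a mean of 17.6% of the windows of distal intronic peaks and 22.7% of all windows, while the medians were 16.4% and 16.9%. Summits of 0 of the 758 peaks lay in an annotated transposable element. This count is favoured by the rule, which leaves out summits within 1 kb of the TSS of such an element. It therefore shows no avoidance of these elements by the peaks.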
